A study of Homo sapiens with 24 samples.

Results

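Krüppel-like factors (KLFs) are zinc-finger transcription factors that bind GC-rich and CACCC sequences in promoters. These 10 KLF genes, KLF15, KLF2, KLF3, KLF4, KLF5, KLF6, KLF9, KLF10, KLF11 and KLF13, were followed in Panc-1 cells in which an acinar basic helix-loop-helix factor could be induced. The parental Panc-1 line derives from a pancreatic ductal carcinoma of a human patient and has long been in culture. The genes were found by symbol in the expression tables, which together list 14413 genes. The set was selected on the measured rise of KLF15 in Tet-MIST1 Dox libraries, which was known, so the Tet-MIST1 Dox values are given as a description. Numbers of genes under the FDR threshold in that line are printed beside the share of all genes, and nothing is read from them. All 10 genes are listed for Tet-One and Tet-MIST1 cells. For Tet-PTF1a cells 9 are listed, and KLF15 in that line was not analysed here.

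The Tet-One line carried the empty doxycycline-inducible plasmid, the Tet-MIST1 line carried rat MIST1 with a myc tag, and the Tet-PTF1a line carried mouse PTF1a with a myc tag, each under a tetracycline-regulated promoter. All cells had been selected in puromycin, and individual clones were screened, so that a difference between lines and a difference between clones cannot be told apart. Each line gave 4 biological replicates without doxycycline (Control) and 4 replicates after 72 h in 1 µg/ml doxycycline (Dox), 24 libraries in all. Cells were used at passage 33 for Tet-MIST1 and at passage 32 for the other lines. RNA was sequenced from whole cultures, in which fewer cells of a kind and less RNA per cell cannot be told apart.

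The libraries held 17210989 to 43018494 counted reads. Of 8 ductal and epithelial markers 7 were listed in every line (summed CPM from 1701 to 8105 per library). All 4 mesenchymal markers were also listed in every line (summed CPM from 3864 to 8443), and VIM alone had group means from 3808 to 6955 CPM. The epithelial cadherin gene CDH1 was at 0.525 CPM in Tet-MIST1 Control and 0.575 CPM in Tet-MIST1 Dox. None of 9 acinar markers was listed for Tet-One or Tet-MIST1, and 1, the trypsinogen gene PRSS1, was listed for Tet-PTF1a, at 0.0262 to 0.0943 CPM in Control and 2.81 to 3.47 CPM in Dox. Of 10 blood, endothelial and fibroblast markers 4 were listed, with PTPRC, PECAM1, VWF and CDH5 not among them. The 4 were CD68 (group means from 33.3 to 252 CPM), COL1A1 (64.5 to 153 CPM), CD14 (0.397 to 1.03 CPM) and PDGFRB (0.601 to 1.53 CPM). The human PTF1A gene, which is not the mouse transgene, had 0 to 2 counts per Control library and 53 to 168 per Dox library in Tet-PTF1a. Reads were aligned to hg19, and whether reads of the mouse transgene were counted for this human gene was not tested. The human MIST1 gene (BHLHA15) was listed for Tet-PTF1a only, with 2 to 16 counts in Control and 12 to 22 in Dox, so that the tables held no check of the rat transgene in Tet-MIST1. Replicate 1 of Tet-One Dox stood apart from its group, with an SD of 0.570 between its log2 CPM and the mean of its replicates, against 0.0697 to 0.225 in all libraries outside Tet-One Dox. The 0.225 was that of Tet-MIST1 Dox replicate 1, and the next highest of those was 0.155 (Tet-MIST1 Dox replicate 2). Of the 10 KLF genes 7 lay below the range of the other Tet-One Dox replicates in Tet-One Dox replicate 1 and 2 lay above it. Results that use that library are given with and without it where it matters.

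KLF factors share a C-terminal DNA-binding domain and differ in their N-terminal regions, which recruit activators or repressors. KLF15 and KLF9 are induced by glucocorticoids and have roles in metabolism and daily rhythms. KLF10 and KLF11 are early targets of TGF-beta and recruit the SIN3 corepressor. KLF2 and KLF4 act downstream of ERK5 and MEF2 and are linked to quiescence and differentiation, KLF5 is associated with epithelial proliferation, and KLF6 is known as a growth-restraining factor in several tumours. KLF3 is a repressor that recruits CtBP, and KLF13 is a relative of KLF9 that is widely expressed.

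The genes were first ordered by their level per exon length, in CPM (the authors' scaled read counts, relative to library size) divided by the length of the exons in kb, because longer genes collect more reads. KLF6 had the highest level in all 6 groups, followed by KLF10 and KLF13. In Tet-One Control cells KLF6 was at 65.4 ± 3.08 CPM per kb (SD, n = 4), KLF10 at 22.3 ± 0.790 and KLF13 at 13.9 ± 0.359. KLF11 (6.87 ± 0.143), KLF3 (5.53 ± 0.392) and KLF2 (1.54 ± 0.151) followed, and no 2 neighbours in this upper part overlapped in any library. KLF9 (0.382 ± 0.0784) and KLF5 (0.339 ± 0.0386) overlapped, and KLF4 (0.122 ± 0.0412) and KLF15 (0.0425 ± 0.0207 CPM per kb) were lowest.

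KLF15 was the lowest of the 10 genes in Tet-MIST1 Control and ranked 6 of 10 in Tet-MIST1 Dox. It was at 0.189 ± 0.0342 CPM per kb in Control, where its range overlapped that of KLF9, and at 4.43 ± 0.385 CPM per kb in Dox, where its range overlapped that of KLF3 (4.59 ± 0.332). In Tet-PTF1a Control cells KLF3 and KLF11 overlapped (8.88 ± 0.144 and 8.86 ± 0.552 CPM per kb), as did KLF5 with KLF9 and KLF9 with KLF2. In Tet-PTF1a Dox cells KLF3 (11.9 ± 0.346) lay above KLF11 (7.84 ± 0.291) and KLF9 (2.17 ± 0.141) lay above KLF5 (1.49 ± 0.0749), with no overlap within either pair.

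**Figure D1:**
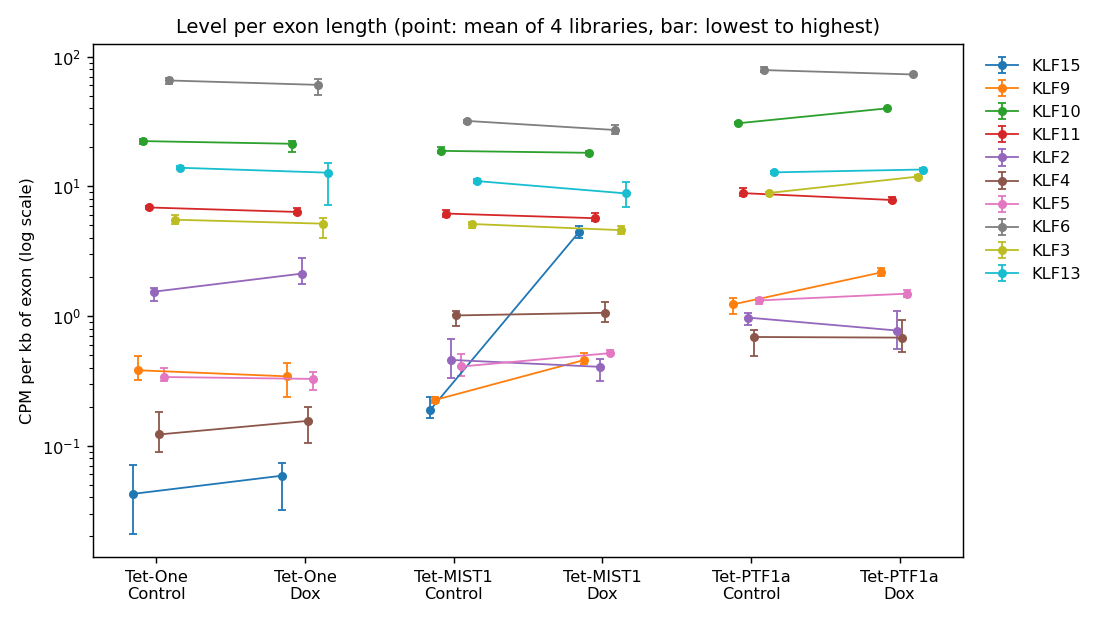
CPM per kb of exon on a log axis for each KLF gene in the 6 groups, as the mean of 4 libraries with a bar from the lowest to the highest library. The line of KLF15 in Tet-MIST1 is the steepest, from 0.189 to 4.43 CPM per kb, while KLF6, KLF10 and KLF13 stay on top in every group.

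KLF15 lies on chromosome 3 of hg19, chr3:126061478-126076236 on the minus strand. In Tet-MIST1 Control libraries it had 0.423, 0.415, 0.601 and 0.467 CPM (17 to 26 counts), and in Tet-MIST1 Dox libraries 12.4, 11.3, 10.1 and 10.9 CPM (372 to 504 counts). Every Dox library lay far above every Control library. The mean went from 0.476 ± 0.0863 to 11.2 ± 0.973 CPM (SD, n = 4), a ratio of 23.5, and the fitted difference was 4.42 on the log2 scale (SE 0.13).

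In Tet-One cells KLF15 stayed near the detection limit. The Control libraries had 0.179, 0.0526, 0.0972 and 0.101 CPM (2 to 7 counts) and the Dox libraries 0.184, 0.159, 0.0804 and 0.169 CPM (3 to 7 counts). The groups overlapped, and KLF15 was below the limit for testing there (over 0.5 CPM in 4 or more libraries of the fit). Before Dox, the mean in Tet-MIST1 was 4.44 times that in Tet-One, and every Tet-MIST1 Control library lay above every Tet-One Control library. Those Tet-MIST1 libraries are also the base of the change for which KLF15 was chosen, so this too is a description.

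The sequence before the start of KLF15 is shown because both induced factors belong to a family that binds E boxes (CANNTG). The 250 bases before the RefSeq start, chr3:126357409-126357658 of GRCh38.p14 on the minus strand, are printed with the E box in capitals. KLF9, a gene with higher Dox values in both factor lines, is printed in the same way from chr9:70414658-70414907 of GRCh38.p14, minus strand.
KLF15: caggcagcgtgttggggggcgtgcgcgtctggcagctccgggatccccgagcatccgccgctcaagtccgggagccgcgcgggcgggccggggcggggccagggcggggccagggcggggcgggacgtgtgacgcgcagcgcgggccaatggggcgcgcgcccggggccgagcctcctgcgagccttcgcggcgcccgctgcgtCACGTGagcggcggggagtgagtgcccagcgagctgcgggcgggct
KLF9: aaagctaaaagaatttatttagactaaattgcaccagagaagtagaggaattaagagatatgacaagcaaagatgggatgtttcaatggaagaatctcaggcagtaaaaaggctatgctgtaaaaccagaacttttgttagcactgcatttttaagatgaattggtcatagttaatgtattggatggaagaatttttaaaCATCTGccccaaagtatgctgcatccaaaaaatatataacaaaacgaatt
The KLF15 stretch had 80.4% G or C, 6 GGGCGG motifs on either strand and 1 E box, 46 bases before the start. That E box was CACGTG, and the KLF15 stretch held neither CAGCTG nor CATCTG. The KLF9 stretch had 32.4% G or C, no GGGCGG motif and 1 E box, 50 bases before the start. Over 34943 RefSeq promoters (250 bases before the start and 50 after), 68.71% held an E box, 44.87% held GGGCGG, 17.94% held CAGCTG and 14.71% held CATCTG on either strand. Of the 10 genes 8 had a RefSeq promoter in the table used.

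Longer windows, from 1000 bases before the start to 100 after, were read from GRCh37 at the coordinates of the deposited tables. CAGCTG was found in 4 of the 10 windows (KLF15, KLF4, KLF10 and KLF13) and in 41.75% of 14254 windows of listed genes, and CATCTG in 5 of 10 (KLF15, KLF2, KLF9, KLF10 and KLF13) and in 41.2%. Any E box was found in 10 of 10 and in 97.82%. TGGGAAA, the core bound by the PTF1 partner RBPJ, was found in 2 of 10 (KLF5 and KLF6) and in 25.62%. GGGCGG and CCACCC, which KLF factors themselves bind, were each in 8 of 10, against 79.94% and 72.94% of all windows. KLF15 was the only one of the 10 genes with 2 CAGCTG sites, and how many of all windows hold 2 was not counted. The 3 sites of KLF15 and that of KLF9 are printed with the 6 bases of the motif in capitals, on the strand of the gene.
KLF15, 990 bases before the start, chr3:126077221-126077226: tgctccttccCAGCTGtggggctgggga
KLF15, 942 bases before the start, chr3:126077173-126077178: agtcggtttcttCATCTGtaaagtgcttgg
KLF15, 915 bases before the start, chr3:126077146-126077151: tggctgaggatcCAGCTGgagtgtggatta
KLF9, 50 bases before the start, chr9:73029618-73029623: agaatttttaaaCATCTGccccaaagtatg
A motif match is a description of the letters and was not tested for binding.

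KLF9, which lies at chr9:72999513-73029573 of hg19 on the minus strand, had higher Dox values in both factor lines. Its Tet-MIST1 Control libraries had 1.24, 1.22, 1.11 and 1.13 CPM and its Dox libraries 2.22, 2.71, 2.38 and 2.23 CPM. No Dox library overlapped a Control library, and the fitted difference was 1.00 on the log2 scale (SE 0.11), again as a description.

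KLF9 in Tet-PTF1a Control libraries had 7.12, 6.11, 6.90 and 5.43 CPM, and in Dox libraries 12.3, 11.1, 11.3 and 10.5 CPM. The Dox libraries were all above the Control libraries. KLF9 rose by 0.80 (SE 0.08, FDR = 6.38e-12 by the quasi-likelihood test of edgeR with Benjamini-Hochberg adjustment over all genes tested), a fold change of 1.75. In Tet-One the Control libraries had 2.58, 1.68, 1.94 and 1.74 CPM and the Dox libraries 1.24, 2.23, 1.42 and 2.25 CPM. The Tet-One groups overlapped, and the difference of -0.15 (95% interval -0.60 to 0.31) was not called (FDR = 0.897). The difference between the Tet-PTF1a and Tet-One responses was itself tested as an interaction and was called, at 0.96 (SE 0.24, FDR = 0.0139).

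**Figure D2:**
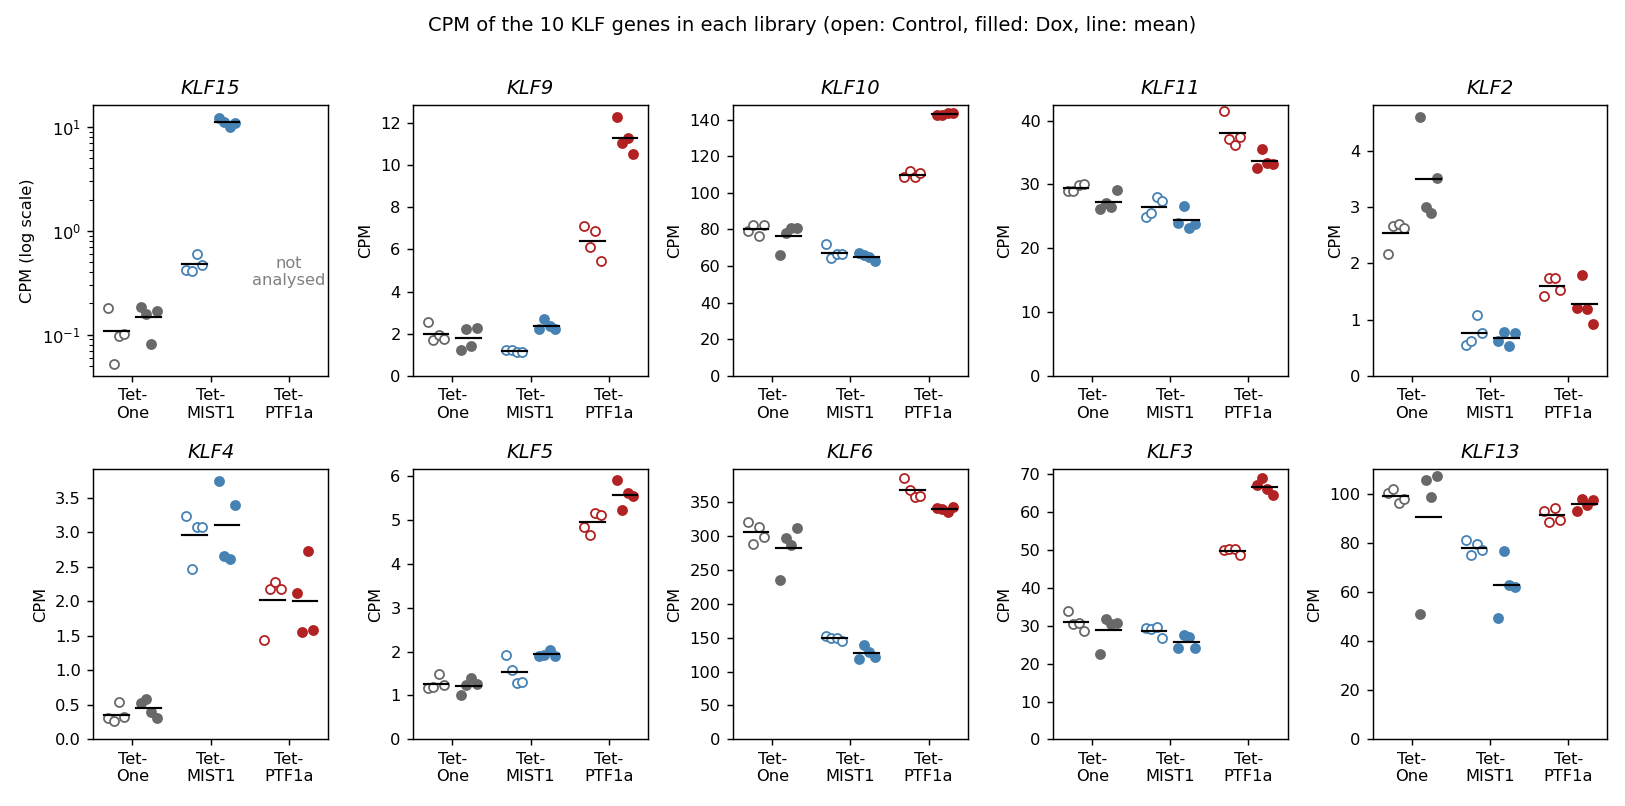
CPM of each KLF gene in each of the 24 libraries, with open points for Control, filled points for Dox and a black line at the mean of 4 (log axis for KLF15, axes from 0 for the rest). KLF15 separates in Tet-MIST1, KLF9 separates in Tet-MIST1 and Tet-PTF1a, and KLF10 and KLF3 separate in Tet-PTF1a, where KLF6 and KLF11 lie lower in Dox.

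Across the tested genes of the set, 6 of 9 were called in Tet-PTF1a (4 higher, 2 lower), where 48.2% of all 14053 genes were called (23.8% higher and 24.4% lower). The median log2 fold change of the 9 genes was 0.07, against 0.00 over all genes. In Tet-One 0 of 8 were called and 0% of all 13428 genes, with 401 genes at an unadjusted p under 0.05 by edgeR and 0 genes called by DESeq2. In the test of the difference between the Tet-PTF1a and Tet-One responses, 3 of 9 were called, all higher in Tet-PTF1a, against 12.8% of all 13519 genes (5.52% higher). Without Tet-One Dox replicate 1, 4 of 9 were called, against 30.7% of all genes, and the added gene, KLF2, was lower in Tet-PTF1a. The set was chosen with earlier results of these data known. With every library kept, 3 of all 18 KLF and SP genes in this test were called (16.7%). The Tet-PTF1a libraries are shared by this test and the test within that line, so the results are not independent of each other. The summed level of the 7 listed ductal and epithelial markers moved with Dox in the same line, from 3462 to 3633 CPM per Control library to 1755 to 1810 CPM per Dox library. This sum is mostly that of the keratins KRT8 (-1.30), KRT18 (-1.10) and KRT19 (-1.07), and of the 7 markers 4 were lower and 3 higher, the last being KRT7 (1.64), CDH1 (0.82) and SOX9 (0.30). The summed level of the 4 listed blood, endothelial and fibroblast markers moved from 213 to 226 CPM to 95.9 to 102 CPM. Their part in the KLF results was not tested.

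In Tet-MIST1, whose values chose the set, 3 of the 9 genes other than KLF15 had a fitted FDR under 0.05, beside 20.6% of all 13623 genes (11.9% higher and 8.77% lower). These were KLF9, which was higher, and KLF6 and KLF13, which were lower. KLF13 was over that threshold in 9 of 16 alternatives, which included scaling by library size, the replicate block, all 24 libraries in one fit, and leaving out any 1 of the Tet-MIST1 Control libraries or Dox replicate 3 or 4. Of the same 9 genes, every Dox library lay above every Control library for 1 (KLF9), beside 12.8% of all genes. Every Dox library lay below for 1 (KLF6), beside 14.4%. The 6 genes not under the FDR threshold had fitted differences from -0.16 (KLF2) to 0.34 (KLF5) on the log2 scale, and their groups overlapped.

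**Figure D3:**
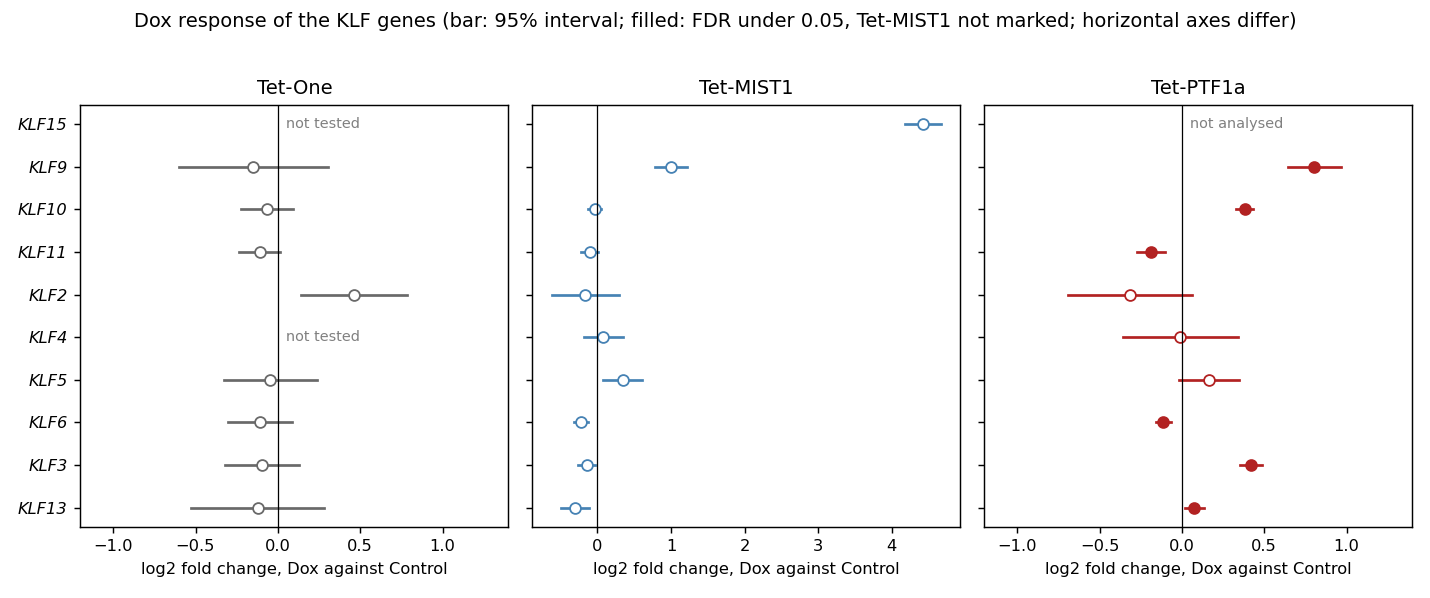
Log2 fold change of Dox against Control for each KLF gene in the 3 lines, with the 95% interval as a bar and filled points for FDR under 0.05 in Tet-One and Tet-PTF1a (Tet-MIST1 is a description and is not marked). The axis of Tet-MIST1 is wider than the others to hold KLF15 at 4.42. KLF9 lies at 1.00 in Tet-MIST1 and 0.80 in Tet-PTF1a, and no point is filled in Tet-One.

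Of the TGF-beta-inducible pair, KLF10 rose with PTF1a and KLF11 fell. KLF10 (chromosome 8 of hg19, minus strand) had 109, 112, 108 and 111 CPM in Tet-PTF1a Control and 143, 142, 144 and 144 CPM in Tet-PTF1a Dox. The SD was 1.65 CPM in Control and 0.749 CPM in Dox, and the groups lay far apart. The change was 0.38 (SE 0.03, FDR = 9.60e-18), and its difference from the Tet-One response was 0.44 (SE 0.08, FDR = 0.00142). KLF10 stayed at 67.4 ± 3.08 CPM in Tet-MIST1 Control and 65.1 ± 1.86 CPM in Tet-MIST1 Dox, with overlap.

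KLF11 (chr2:10183682-10194963, plus strand) had 41.5, 37.1, 36.1 and 37.5 CPM in Tet-PTF1a Control and 32.6, 35.5, 33.4 and 33.2 CPM in Tet-PTF1a Dox. The highest Dox library lay below the lowest Control library. The fall was -0.19 (SE 0.04, FDR = 3.65e-04), but the difference from Tet-One, -0.07 (95% interval -0.22 to 0.08), was not called (FDR = 0.643), and Tet-One gave -0.11. KLF11 shares 416 exon bases with an antisense gene (ENSG00000271787), and the sources used here do not state whether the counting used strand.

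KLF3, the CtBP-recruiting repressor (chr4:38665790-38703129, plus strand), had 50.1, 50.4, 50.4 and 48.7 CPM in Tet-PTF1a Control and 67.1, 69.1, 66.0 and 64.5 CPM in Dox. Dox libraries were all above Control libraries. The rise was 0.42 (SE 0.03, FDR = 3.58e-15), and it differed from the Tet-One response by 0.51 (SE 0.12, FDR = 0.00923). In Tet-One Dox, KLF3 was at 22.6 CPM in replicate 1 and at 30.6 to 31.7 CPM in the other replicates. Without that library the difference from Tet-One was 0.42 (FDR = 6.60e-06). KLF3 shares 286 exon bases with KLF3-AS1 on the opposite strand.

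KLF13 (chr15:31619058-31727868, plus strand), the relative of KLF9, differed little between Control and Dox in Tet-PTF1a. Its Tet-PTF1a libraries had 93.1, 88.4, 94.0 and 89.2 CPM in Control and 92.9, 97.8, 95.4 and 97.6 CPM in Dox. The groups overlapped, and the difference of 0.07 (SE 0.03) passed at FDR = 0.0340. It no longer passed with DESeq2 (FDR = 0.0770), with all 24 libraries in one fit (FDR = 0.820) or when Control replicate 2 (FDR = 0.103), Control replicate 4 (FDR = 0.120), Dox replicate 2 (FDR = 0.113) or Dox replicate 4 (FDR = 0.0968) of Tet-PTF1a was left out. In Tet-MIST1 the Control libraries had 81.0, 74.9, 79.4 and 77.2 CPM and the Dox libraries 49.6, 76.6, 62.8 and 62.2 CPM, which overlapped, with a fitted difference of -0.30. In Tet-One Dox it had 51.0 CPM in replicate 1 and 98.5 to 107 CPM in the others.

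KLF6 (chr10:3818188-3827473, minus strand), the gene with the highest level, was lower after Dox in both factor lines by small amounts. Tet-PTF1a Control libraries had 385, 367, 357 and 358 CPM and Dox libraries 341, 339, 334 and 343 CPM. There was no overlap, as for the 21.4% of all genes whose Dox libraries all lay below, and the fall was -0.11 (SE 0.02, FDR = 4.88e-05), which did not pass with all 24 libraries in one fit (FDR = 0.230). Tet-One gave -0.11 as well (95% interval -0.30 to 0.08, not called), and the difference between the responses was -0.01 (95% interval -0.20 to 0.19, FDR = 0.982). In Tet-MIST1 the Control libraries had 152, 149.6, 149.9 and 144 CPM and the Dox libraries 119, 138, 128 and 121 CPM, without overlap, a fitted difference of -0.22.

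KLF2 (chr19:16435651-16438339, plus strand) and KLF4 (chr9:110247133-110252047, minus strand), the ERK5 and MEF2 targets, gave no call for Dox where they were tested, and KLF4 was below the limit for testing in Tet-One. KLF2 had 1.41, 1.74, 1.74 and 1.52 CPM in Tet-PTF1a Control and 1.21, 1.79, 1.18 and 0.914 CPM in Dox. The groups overlapped, at -0.32 (95% interval -0.69 to 0.06, FDR = 0.151). Without Tet-PTF1a Dox replicate 2, the highest of the group, the difference was -0.52 and passed (FDR = 0.0268).

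In Tet-One cells KLF2 went the other way, from 2.17, 2.66, 2.70 and 2.63 CPM in Control to 4.61, 3.00, 2.89 and 3.51 CPM in Dox. All Dox libraries lay above all Control libraries, as for 1.27% of all genes (1.17% lay below), but the difference of 0.46 (SE 0.16) was not called (FDR = 0.897). The difference of the Tet-PTF1a response from it was -0.78 (SE 0.27, FDR = 0.0640), which passed with DESeq2 (FDR = 0.0376), without Tet-One Dox replicate 1 (-0.61, FDR = 0.0320), without Tet-One Dox replicate 3 (FDR = 0.0414) and without Tet-PTF1a Dox replicate 2 (-0.99, FDR = 0.0182).

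KLF4 was at 2.02 ± 0.391 CPM in Tet-PTF1a Control and 2.00 ± 0.554 CPM in Dox, a difference of -0.01 (95% interval -0.36 to 0.34, FDR = 0.979). KLF4 shares 277 exon bases with an antisense gene (ENSG00000289987). KLF5 (chr13:73629114-73651680, plus strand) had 4.83, 4.65, 5.16 and 5.12 CPM in Tet-PTF1a Control and 5.92, 5.23, 5.61 and 5.54 CPM in Dox. All KLF5 Dox libraries were above all Control libraries, as for 20.8% of all genes, yet the difference of 0.16 (95% interval -0.02 to 0.35) was not called (FDR = 0.138).

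The lines also differed before Dox. In Control cells, 8 of 9 genes were called between Tet-PTF1a and Tet-One (7 higher, 1 lower), against 65.6% of all 13519 genes (32.8% higher). Between Tet-MIST1 and Tet-One, 6 of the 9 genes other than KLF15 were called (1 higher, 5 lower), against 64.2% of all 13879 genes. Both comparisons use the same Tet-One Control libraries, and the Tet-MIST1 line also differs in passage.

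KLF4 showed the widest gap among the 9 tested genes other than KLF15. It had 0.306, 0.263, 0.535 and 0.328 CPM in Tet-One Control, 3.23, 2.47, 3.08 and 3.08 CPM in Tet-MIST1 Control and 1.44, 2.18, 2.28 and 2.18 CPM in Tet-PTF1a Control. Neither line overlapped Tet-One. The difference from Tet-One was 2.87 (SE 0.21, FDR = 3.44e-09) in Tet-MIST1 and 2.21 (SE 0.26, FDR = 1.10e-06) in Tet-PTF1a.

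KLF5 and KLF9 were higher in Tet-PTF1a Control cells than in Tet-One Control cells. KLF5 was at 4.94 ± 0.242 CPM in Tet-PTF1a Control, against 1.27 ± 0.145 CPM in Tet-One Control and 1.53 ± 0.289 CPM in Tet-MIST1 Control, a difference from Tet-One of 1.83 (SE 0.10, FDR = 2.86e-10) for Tet-PTF1a and 0.26 (95% interval -0.01 to 0.53, FDR = 0.0994) for Tet-MIST1. The latter passed without Control replicate 3 of either line (0.34, FDR = 0.0491 without that of Tet-One, and 0.33, FDR = 0.0497 without that of Tet-MIST1). KLF9 was at 1.99 ± 0.408 CPM in Tet-One Control and 6.39 ± 0.772 CPM in Tet-PTF1a Control, higher by 1.57 (SE 0.17, FDR = 7.50e-07), and at 1.18 ± 0.0669 CPM in Tet-MIST1 Control, lower by -0.73 (SE 0.19, FDR = 0.00253). After Dox, Tet-MIST1 cells held 2.38 ± 0.231 CPM of KLF9, under the 6.39 CPM of Tet-PTF1a cells without Dox.

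KLF2 and KLF6 were lower in Tet-MIST1. KLF2 was at 2.54 ± 0.248 CPM in Tet-One Control, 1.602 ± 0.161 in Tet-PTF1a and 0.756 ± 0.239 in Tet-MIST1, with differences from Tet-One of -0.75 (SE 0.18, FDR = 0.00147) and -1.68 (SE 0.20, FDR = 1.58e-06). KLF6 was at 305.0 ± 14.3 CPM in Tet-One Control and 149 ± 3.18 in Tet-MIST1 Control, lower by -1.03 (SE 0.08, FDR = 8.69e-09). In Tet-PTF1a Control KLF6 was at 367 ± 13.0 CPM, a difference of 0.18 (FDR = 0.0332) that did not pass without Tet-One Control replicate 2 (FDR = 0.0923) or 4 (FDR = 0.0740), or without Tet-PTF1a Control replicate 1 (FDR = 0.0926) or 2 (FDR = 0.0583).

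KLF3 and KLF10 were higher in Tet-PTF1a Control than in Tet-One Control by 0.60 (SE 0.09, FDR = 1.62e-05) and 0.37 (SE 0.06, FDR = 3.27e-05), and KLF11 by 0.29 (SE 0.05, FDR = 2.30e-04). In Tet-MIST1 Control KLF10 was lower by -0.25 (SE 0.06, FDR = 0.00252) and KLF3 differed by -0.11 (95% interval -0.29 to 0.07, FDR = 0.320). KLF11 in Tet-MIST1 Control was lower by -0.16 (SE 0.06, FDR = 0.0263), a call lost without Tet-One Control replicate 3 (FDR = 0.0589) or 4 (FDR = 0.0527) and without Tet-MIST1 Control replicate 1 (FDR = 0.0777) or 2 (FDR = 0.0726), and with library size (FDR = 0.191) or upper quartile scaling (FDR = 0.0835). KLF13 was not called for Tet-PTF1a (-0.20, FDR = 0.275) or Tet-MIST1 (-0.34, FDR = 0.101). Without Tet-One Dox replicate 1 both passed (-0.20, FDR = 4.50e-06, and -0.35, FDR = 7.16e-04).

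The remaining KLF and SP genes give the setting of the family. Of 27 family genes 19 were listed in each table, which left 9 besides the 10 in Tet-One and Tet-MIST1 (KLF7, KLF12, KLF14, KLF16, SP1, SP2, SP3, SP4 and SP6) and 10 in Tet-PTF1a, where KLF8 was also listed. In Tet-PTF1a 7 of those 10 were called, 6 lower and 1 higher, beside 24.4% of all genes lower and 23.8% higher. The lower ones were KLF7 (-0.66, FDR = 2.30e-14), KLF12 (-0.27, FDR = 7.07e-05), KLF16 (-0.13), SP1 (-0.24), SP2 (-0.13) and SP3 (-0.14), and the higher one was SP4 (0.16). KLF7 went from 21.5, 22.6, 23.4 and 22.6 CPM to 14.3, 15.5, 13.4 and 13.7 CPM, with no overlap. KLF8 (0.00), KLF14 (-0.06) and SP6 (-0.26) were not called. None of the 9 was called in Tet-One, where 0% of all genes were called. None was called in the test of the difference between Tet-PTF1a and Tet-One either, beside 12.8% of all genes. That test includes Tet-One Dox replicate 1, and these genes were not tested without it. KLF7 had 9.14 CPM in that library and 16.6 to 18.4 CPM in the other Tet-One Dox replicates. SP1 had 67.8 against 131 to 135 CPM, and KLF16 had 121 against 81.4 to 90.7 CPM. In that test KLF16 (-0.42, FDR = 0.0647) and KLF7 (-0.48, FDR = 0.182) were farthest from 0.

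KLF12, a repressor that recruits CtBP as KLF3 does, was nearly absent from the Tet-MIST1 clone. It had 13.2, 11.6, 14.2 and 12.3 CPM in Tet-One Control, 29.4, 26.9, 26.7 and 27.8 CPM in Tet-PTF1a Control and 0.348, 0.300, 0.301 and 0.384 CPM (13 to 14 counts) in Tet-MIST1 Control. The 3 lines did not overlap. The difference from Tet-One was -5.08 (SE 0.21, FDR = 3.92e-12) in Tet-MIST1 and 1.02 (SE 0.11) in Tet-PTF1a. KLF7 was also lower in Tet-MIST1 Control, by -1.18 (SE 0.17).

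The genes whose pattern was most like that of KLF15 were ranked by Pearson's r of log2 CPM over the 16 Tet-One and Tet-MIST1 libraries, among 12929 genes with a mean above 1 CPM. The 16 points share 4 groups of libraries, and r is given as a description. Among the highest were AQP3, which encodes a water and glycerol channel (r = 0.986), HID1 (0.984), CRYM, a thyroid hormone-binding protein (0.983), and LIMA1, an actin-binding protein (0.982). AQP3 was at 2.51 ± 0.197 CPM in Tet-MIST1 Control and 9.27 ± 0.706 CPM in Dox, and CRYM at 0.439 ± 0.0623 and 4.05 ± 0.411 CPM. The lowest were STK39 (r = -0.961), CTNNB1, which encodes beta-catenin (-0.952), and EOMES (-0.951). Within the family, r with KLF15 was 0.80 for KLF5, 0.77 for KLF4 and 0.41 for KLF9, and KLF6 had the lowest value (-0.84).

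Genes around these factors were taken from lists of pathways that feed or follow them. The list of branched-chain amino acid breakdown and KLF15 target genes had 28 of 30 genes tested in both factor lines. It was not divided into pathway genes and KLF15 targets, so its counts do not show how KLF15 targets as such behaved. In Tet-MIST1 7 were higher and 0 lower under the FDR threshold (25%, beside 20.6% of all genes), with a median of 0.10 against 0.00 for all genes. The farthest were BCKDK, the kinase that restrains branched-chain ketoacid dehydrogenase (87.5 ± 3.66 to 142 ± 6.65 CPM, 0.71), ACAD8, an enzyme of valine breakdown (29.3 ± 0.128 to 44.7 ± 3.66 CPM, 0.62), and ALDH6A1, a later enzyme of the same path (4.17 ± 0.211 to 5.77 ± 0.718 CPM, 0.47). In Tet-PTF1a 4 were higher and 10 lower (50%, beside 48.2% of all genes), with a median of -0.09, and in the difference from the Tet-One response 1 was higher and 1 lower (7.14%, beside 12.8%). Its farthest called genes were the higher ones, BCAT1, which starts branched-chain breakdown in the cytosol (0.83), PPM1K, the phosphatase that opposes BCKDK (0.68), and PRODH, which degrades proline (0.68).

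Glucocorticoid target genes were followed because KLF9 and KLF15 are among the genes that this receptor induces. In Tet-PTF1a 13 of 18 were called, 4 higher and 9 lower (72.2%, beside 48.2%), with a median of -0.16. The largest changes were in SCNN1A, a sodium channel subunit (4.69 ± 0.576 to 1.31 ± 0.231 CPM, -1.72), MT2A, a metallothionein (250.3 ± 7.32 to 79.6 ± 2.99 CPM, -1.66), and DUSP1, a MAP kinase phosphatase (57.0 ± 1.31 to 26.2 ± 1.42 CPM, -1.11). KLF9 itself rose in the same cells. In Tet-MIST1 4 of 20 were under the FDR threshold (20%, beside 20.6% of all genes), 2 higher and 2 lower. METTL7A (1.13), TSC22D3 (0.40) and ERRFI1 (-0.36) were farthest from 0.

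The TGF-beta early response list had 16 genes, of which 5 were higher and 7 lower in Tet-PTF1a (75%, beside 48.2% of all genes), with a median of 0.00. ID3 went from 49.98 ± 3.61 to 369 ± 10.7 CPM (2.89), ID1, like ID3 a dominant-negative helix-loop-helix factor, from 93.6 ± 7.87 to 433 ± 7.30 CPM (2.21), and TGFB2, a ligand, from 36.1 ± 3.29 to 64.5 ± 3.96 CPM (0.82). In Tet-MIST1 1 was higher and 2 lower (18.75%, beside 20.6% of all genes), among them JUNB (0.35) and TGFBR2 (-0.19).

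Of 17 circadian clock genes tested in Tet-PTF1a, 3 were higher and 3 lower (35.3%, beside 48.2% of all genes). The repressor BHLHE41 (93.6 ± 2.75 to 32.1 ± 0.818 CPM, -1.54), NPAS2, a partner of ARNTL (60.5 ± 2.50 to 32.2 ± 0.695 CPM, -0.92), and the output factor TEF (16.5 ± 1.00 to 23.1 ± 0.361 CPM, 0.50) were farthest from 0. In Tet-MIST1 1 of 16 was higher and 2 were lower (18.75%, beside 20.6% of all genes). These were DBP, also an output factor (0.51), NPAS2 (-0.27) and CLOCK (-0.24).

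The ERK5 and MEF2 list, which holds inputs to KLF2 and KLF4 and also targets, had 4 genes higher and 4 lower of 15 in Tet-PTF1a (53.3%, beside 48.2% of all genes). THBD, an endothelial KLF2 target (0.89), MEF2D (0.48) and NOS3 (-0.41) were farthest from 0. In Tet-MIST1 MEF2C was lower (-0.33) and CCM2 higher (0.20), of 14 tested (14.3%, beside 20.6% of all genes). Of 17 KLF cofactors and turnover factors, 3 were higher and 5 lower in Tet-PTF1a (47.1%, beside 48.2% of all genes). HDAC2 (0.30), the ubiquitin ligase component FBXW7 (0.21) and SIRT1 (-0.20) were farthest from 0. In Tet-MIST1 2 of the 17 were lower (11.8%, beside 20.6% of all genes), YAP1 (-0.23) and SIN3B (-0.21). None of the genes on these 6 lists was called in Tet-One, where 0% of all 13428 genes were called.

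**Figure D4:**
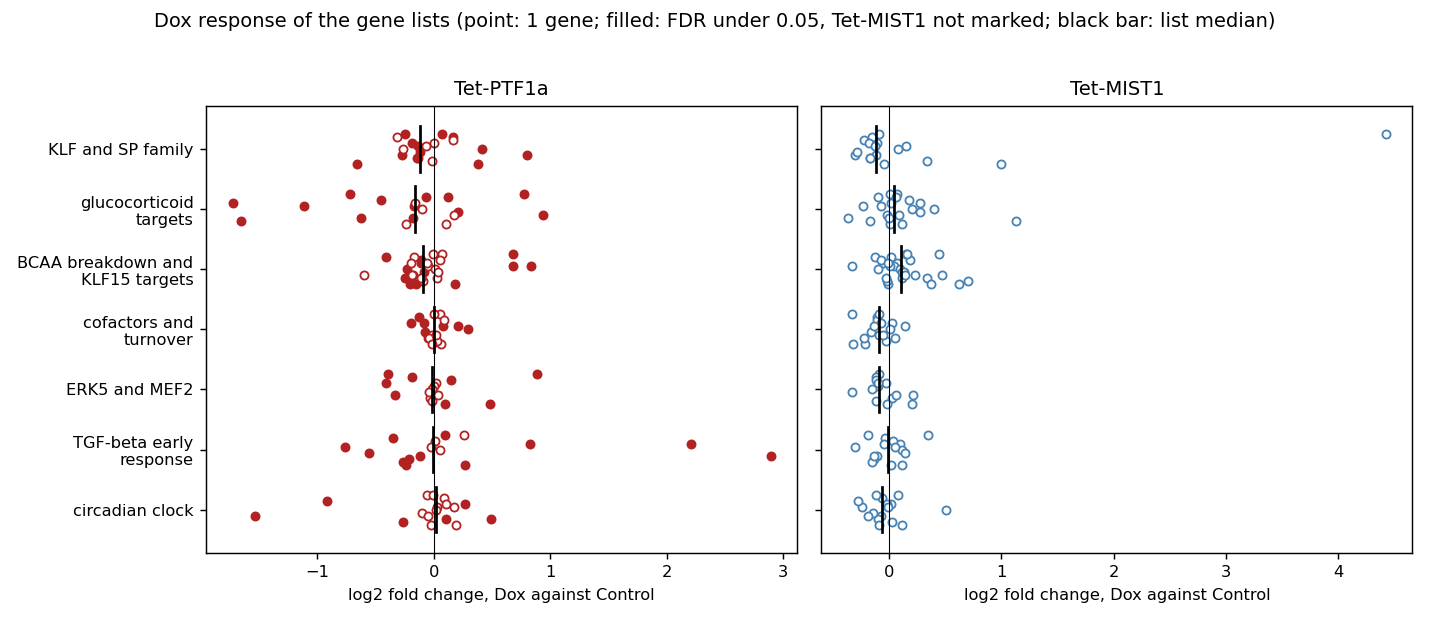
Log2 fold change of Dox against Control for each tested gene of 7 lists in Tet-PTF1a and Tet-MIST1, with filled points for FDR under 0.05 in Tet-PTF1a (Tet-MIST1 is not marked) and a black bar at the median of the list. The median of glucocorticoid targets lies at -0.16 in Tet-PTF1a, and that of branched-chain amino acid breakdown at 0.10 in Tet-MIST1.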

How the data were processed

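RNA of 24 Panc-1 libraries was sequenced by the study as paired-end reads, aligned to hg19 with TopHat, and filtered at 0.5 CPM in at least 4 samples. The submitters' processing notes also name HTSeq, DESeq and edgeR, with no versions, and whether the counting used strand is not given in the sources used here. The authors deposited 1 table per line with raw counts per gene, which are not normalized. The authors also deposited a CPM signal per library, scaled so that libraries do not sum to the same total (printed here as CPM), and their own comparison columns, which were not used. The number of other columns of values per sample was 0.

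The 10 genes and all gene lists were chosen with earlier results of these data known. Dox was compared with Control on the deposited counts in R 4.3.3 with edgeR 4.0.16 and its quasi-likelihood test (TMM, robust fit). Genes over 0.5 CPM in 4 or more libraries of the fit were tested, with Benjamini-Hochberg adjustment over all of them and an FDR threshold of 0.05. Each line was fitted on its own 8 libraries. The difference between responses and the Control comparisons were fitted on the 16 libraries of 2 lines. Log2 fold changes use a prior count of 2, and 95% intervals are the change ± its SE scaled by the normal quantile. Named genes were the 10 genes, all other listed KLF and SP genes, the 3 farthest called genes of each list in each factor line, and the 5 most and 3 least correlated with KLF15, of which some are not reported here. The procedure was tested on simulated counts. Replicate counts were compared in 36 pairs by chi-square (1.39 to 238 per degree of freedom), so every library was counted as 1 replicate. The same replicate numbers in Control and Dox did not pair the libraries, since their deviations were not correlated above 0.1 in every pair of any line. Alternatives were other count filters, scaling by library size or upper quartile, DESeq2 1.42.0, a replicate block, all 24 libraries in one fit, a prior count of 0.125, TMM-scaled CPM over all libraries, and each library left out in turn. Promoter windows came from GRCh37 and from RefSeq tables of GRCh38.p14. KLF15 in Tet-PTF1a was not analysed here.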

Additional observations from a re-analysis of the deposited data

Results flagged for a closer look

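Of 58 groups of 4 libraries checked (10 KLF genes over their groups), 6 had a library that lay apart from the others by Dixon's test at the 95% level, and chance alone would do so in about 1 of 20 groups. Those libraries were Tet-One Control replicate 1 for KLF2 (2.17 CPM, the lowest), Tet-One Dox replicate 1 for KLF3 (22.6 CPM, the lowest) and for KLF13 (51.0 CPM, the lowest), Tet-PTF1a Control replicate 4 for KLF3 (48.7 CPM, the lowest), Tet-PTF1a Control replicate 1 for KLF4 (1.44 CPM, the lowest) and Tet-MIST1 Dox replicate 3 for KLF5 (2.04 CPM, the highest). Tet-One Dox replicate 1 also stood apart over all genes.

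The Dox responses of 3 genes differed between Tet-PTF1a and Tet-One by a test of the difference itself, by 0.96 for KLF9, 0.51 for KLF3 and 0.44 for KLF10 on the log2 scale, each higher in Tet-PTF1a in all 24 alternatives run for it.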

How the results depend on the processing

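No alternative reversed a called difference. The number of KLF genes called fell from 6 to 4 in Tet-PTF1a with all 24 libraries in one fit and otherwise stayed closer to the reported number: with each library left out in turn it was 5 to 6 in Tet-PTF1a, 0 to 0 in Tet-One, 3 to 4 in Tet-MIST1, 3 to 4 for the difference between Tet-PTF1a and Tet-One, 7 to 9 in Control for Tet-PTF1a and 6 to 8 for Tet-MIST1. Over 1101 recomputed log2 fold changes of single genes, 1070 kept their side of the threshold (or, where given as a description, moved by at most their SE), 18 no longer passed it, 10 newly passed it and 3 descriptions moved by more. With the replicate number as a block, which did not pair the libraries, 6, 0, 3, 3, 7 and 7 KLF genes were called in the same order. The number of all genes called differed by more than 1.5 times with all 24 libraries in one fit (Tet-PTF1a 3131 against 6775, Tet-MIST1 1705 against 2812), with the block (Tet-MIST1 1463), without Tet-MIST1 Control replicate 1, 2 or 3 (1460, 1771 and 1436), without Tet-One Dox replicate 1 for the difference between the lines (4154 against 1736) and without it in Tet-One (1 against 0), and the cause was not tested. At 2 to 7 counts KLF15 in Tet-One allows no statement on a Dox response.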
